A study of Rattus norvegicus with 4 samples.

Results

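The 9 genes described here belong to the antioxidant program of NRF2, and they were taken by gene symbol from the 16992 genes measured in rat liver. They are *Nfe2l2*, *Keap1*, *Gclc*, *Gclm*, *Gsr*, *Txnrd1*, *Srxn1*, *Nqo1*, and *Akr1b8*, and all 9 were present in each library as a single annotated row. The livers came from 4 wild-type male Wistar rats, bought at 6 weeks of age and kept for at least 1 week, and the left lateral lobe was used. The sevoflurane rat inhaled 4.5% sevoflurane for 6 hours and the desflurane rat inhaled 6% desflurane for 6 hours, both through a nose cone in oxygen-enriched gas. Each agent had its own control rat, which inhaled that agent only until it lost consciousness. All rats had been kept without food and water for 2 hours beforehand and were killed at about the same time of day, so a longer time without food cannot be told apart from 6 hours of anesthesia. With 1 library per condition, differences could not be set against a spread between replicates, and no p-values were calculated.

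NRF2 is a transcription factor, encoded by *Nfe2l2*, that turns on genes for the removal of oxidants and reactive chemicals. KEAP1 binds NRF2 in the cytoplasm and hands it over for degradation by a CUL3 ubiquitin ligase, and oxidants or electrophiles that modify KEAP1 let NRF2 accumulate, pair with a small MAF protein, and bind antioxidant response elements in its target genes. Most of this control acts on the NRF2 protein, which was not measured here. In the liver, the program is best known for its induction by reactive metabolites of drugs and other chemicals.

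Values are TPM, the abundance measure of StringTie, which are scaled for gene length and library, so that levels can be compared between genes. A gene was called higher or lower when TPM was above 2 in the higher library and the libraries differed more than 2-fold. As a measure of how far apart livers of the same state were, the 2 controls differed by a median of 0.15 on the log2 scale, in either direction, among 9347 genes above 2 TPM in both. The depth derived from FPKM and coverage was between 4.47 and 5.40 Gb of aligned sequence per library. The 10 hepatocyte marker genes added up to between 149169 and 165684 TPM, and none of them was called lower with either agent. The 10 macrophage and Kupffer cell genes added up to 719 TPM in the sevoflurane control and 452 TPM at 6 hours, and 561 and 684 TPM in the matching desflurane libraries. All 10 were lower with sevoflurane, 3 of them past the limits, and 1 of 10 was lower with desflurane. Of the 9 measured T, NK, and B cell genes, 8 were lower with sevoflurane, 3 of them past the limits, and 3 were lower with desflurane, none past the limits. Their summed TPM was 32.4, 22.5, 29.5, and 30.8 in the same library order. Pancreatic acinar genes added up to 51.2 TPM in the sevoflurane control and to between 15.4 and 18.5 TPM in the other libraries, where *Ctrb1*, *Pnlip*, and *Prss1* were listed at 0. The summed TPM ranges were 172 to 202 for endothelial, 290 to 329 for stellate and fibroblast, 14.5 to 21.4 for cholangiocyte, and 1.65 to 4.61 for neutrophil genes. The sum of the 6 measured erythroid genes was lower with both agents, as was *Gclm*, from 119 to 83.4 TPM with sevoflurane and from 89.3 to 49.1 TPM with desflurane, and 5 of 6 were lower with each agent, 1 of them past the limits. In bulk liver, fewer cells of a type and less RNA per cell cannot be told apart, and the part of these cells in the values below was not tested.

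The members differed widely in level. Averaged over the 4 libraries, *Gclm* was the most abundant at 152 TPM, followed by *Gclc* (116 TPM), *Gsr* (107 TPM), *Nfe2l2* (73.7 TPM), *Txnrd1* (65.4 TPM), *Keap1* (18.7 to 23.1 TPM over the libraries), *Srxn1* (11.9 TPM), *Nqo1* (8.82 TPM), and *Akr1b8* (1.38 TPM). Glutathione synthesis and recycling thus held the first 3 places, and the quinone and aldehyde reductases held the last 2. The order of neighbors has no replicate spread behind it, and the lead of *Gclm* over *Gclc* was present in the controls only.

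**Figure D1:**
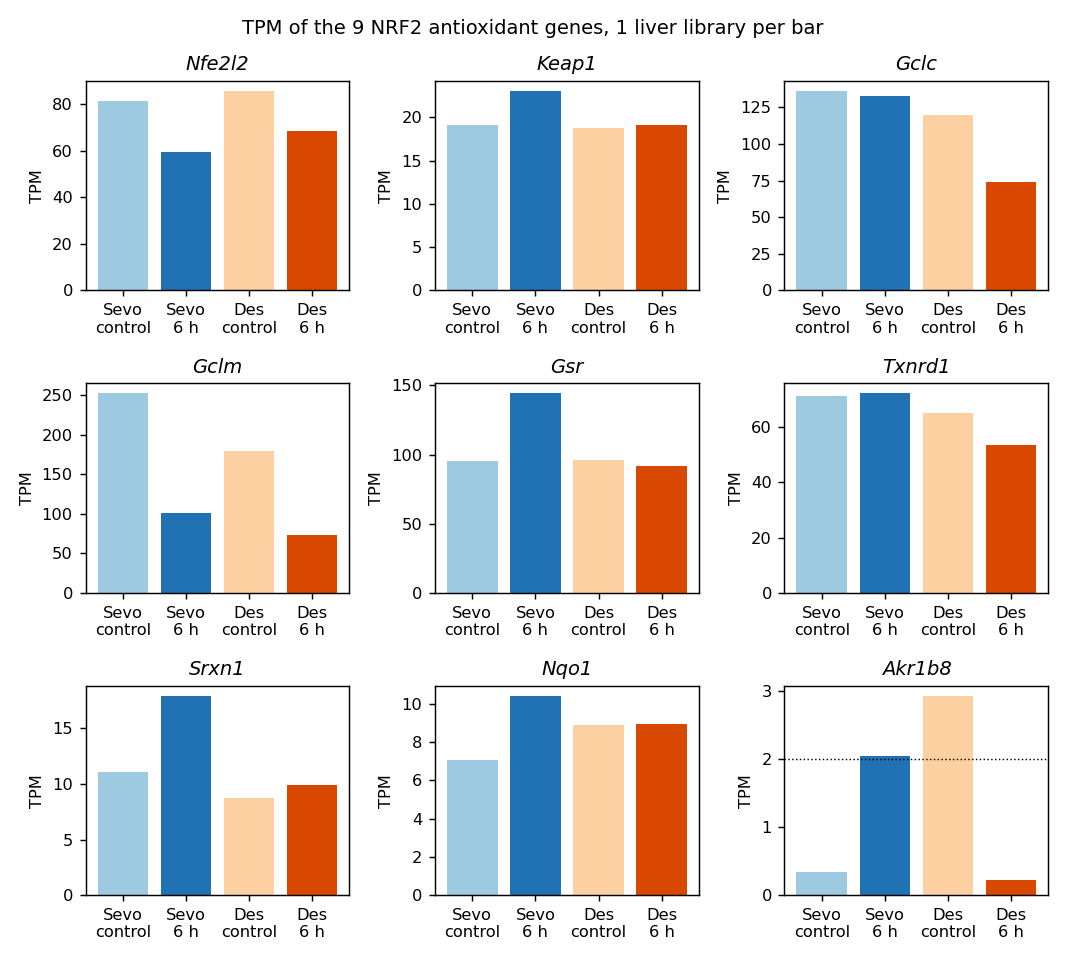
TPM of each member in the 4 liver libraries, with 1 library per bar and a separate linear axis from 0 for each gene; the dotted line for Akr1b8 marks the limit of 2 TPM. *Gclm* was between 73.9 and 101 TPM in the 6 hour libraries and between 180 and 252 TPM in the controls, and *Gsr* and *Srxn1* were highest after 6 hours of sevoflurane.

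With each agent against its own control, the clearest difference was the lower level of *Gclm*. It was 2.49-fold lower with sevoflurane and 2.44-fold lower with desflurane, and it was the only member called with both agents in the same direction. *Akr1b8* was called higher with sevoflurane and lower with desflurane, but at no more than 2.92 TPM in any library. The remaining 7 members stayed within 2-fold of their own control with both agents. Sevoflurane therefore had 1 of 9 members called higher and 1 of 9 called lower, whereas 2.23% and 3.30% of the 9754 genes that could be called were higher and lower. With desflurane, 0 of 9 members were called higher and 2 of 9 lower, beside 2.79% and 1.48% of 9855 genes. These are counts of 1 or 2 genes per list and were not tested.

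Neither regulator, *Nfe2l2* nor *Keap1*, was called with either agent. *Nfe2l2* (chr3:62497571-62524994 in rn6, minus strand) had 81.2 TPM in the sevoflurane control and 59.6 TPM at 6 hours, and 85.5 and 68.6 TPM in the matching desflurane libraries. Both 6 hour libraries were below both controls, by between 0.24 and 0.52 on the log2 scale, and no pair passed the 2-fold limit. In the rows that StringTie assembled without gene names, *Nfe2l2* had 56.8, 55.8, 34.8, and 29.1 TPM in the same library order, so that the 6 hour sevoflurane library was 1.60-fold above the desflurane control. In annotated rows, the same arrangement, both 6 hour libraries below both controls, was found for 13.0% of the 9136 genes above 2 TPM in all 4 libraries. *Keap1* (chr8:22250518-22259779, minus strand), the repressor, had 19.1, 23.1, 18.7, and 19.1 TPM in the same order. Its level after 6 hours of sevoflurane was 1.20-fold above that of the control, and the other 3 libraries lay within 1.02-fold of each other. Within each library, TPM of *Nfe2l2* was 4.24 times that of *Keap1* in the sevoflurane control and 4.57 times in the desflurane control, compared with 2.58 times after sevoflurane and 3.58 times after desflurane. In assembled rows, *Keap1* had 20.5, 27.9, 17.7, and 22.4 TPM in the same order. There the ratio after sevoflurane was not below that of the desflurane control.

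Glutamate cysteine ligase carries out the rate-limiting step of glutathione synthesis and consists of a catalytic subunit, *Gclc*, and a modifier subunit, *Gclm*, which raises the efficiency of the enzyme. *Gclm* (chr2:225827504-225847876, plus strand) had 252 TPM in the sevoflurane control and 101 TPM at 6 hours, and 180 and 73.9 TPM in the matching desflurane libraries. The 2 states did not overlap, although the controls themselves differed 1.40-fold. Both 6 hour libraries were below both controls for 13.0% of the 9136 genes above 2 TPM in all 4 libraries. With the control of the other agent, *Gclm* was 1.78-fold lower with sevoflurane, which no longer passed the limit, and 3.42-fold lower with desflurane. The mean coverage behind these values was between 124 and 454. *Gclm* was 1 of 31 genes called lower with both agents, which were 0.322% of the 9616 genes that could be called in both comparisons.

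*Gclc* (chr8:85059051-85097470, plus strand) was not called with either agent. It had 136 TPM in the sevoflurane control and 133 TPM at 6 hours, and 120 and 74.3 TPM in the matching desflurane libraries. Only the last library stood apart, at 1.61-fold below its own control, 1.83-fold below the other control, and 1.79-fold below the 6 hour sevoflurane library. None of these differences passed the 2-fold limit. TPM of *Gclm* was 1.85 times that of *Gclc* in the sevoflurane control and 1.503 times in the desflurane control, and the ratio was 0.763 after sevoflurane and 0.994 after desflurane. The modifier transcript was thus more abundant than the catalytic one in both controls, less abundant after sevoflurane, and about level with it after desflurane.

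**Figure D2:**
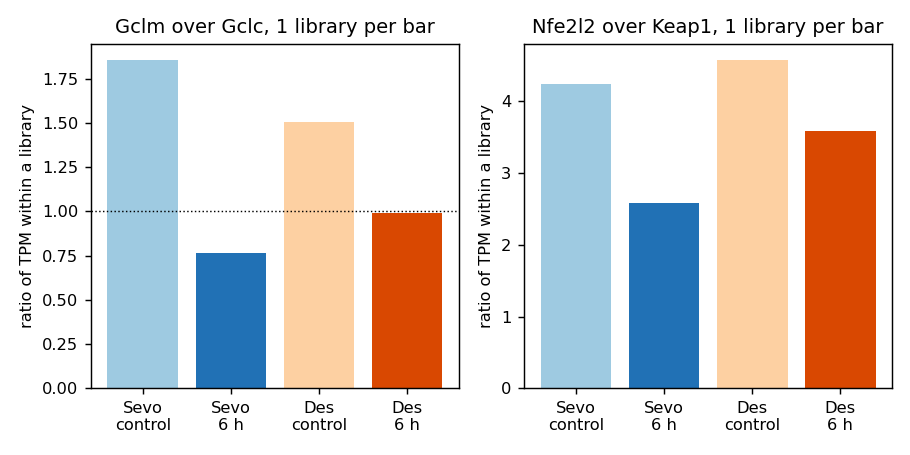
Ratio of TPM within each library for *Gclm* over *Gclc* (left, the dotted line marks equal levels) and *Nfe2l2* over *Keap1* (right), with 1 library per bar and axes from 0. In these annotated rows, both ratios were lower in each 6 hour library than in either control.

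*Gclm* was also set beside genes of similarly high level, with a limit of 100 TPM that was chosen after the values were seen. Of the 913 genes above 100 TPM in the sevoflurane control, 3.07% were called lower with sevoflurane, and of the 875 genes above 100 TPM in the desflurane control, 2.51% were called lower with desflurane. Only 6 of the 825 genes above 100 TPM in both controls were called lower with both agents. *Gclm* was among them, together with *Osgin1*, an oxidative stress-induced growth inhibitor gene that is also a known NRF2 target. Over the 4 libraries, the 3 genes with the profile closest to that of *Gclm* among 9135 genes were *Slc13a4*, *Rsad2*, and *Dnajc12*, at Euclidean distances of 0.15, 0.26, and 0.35 between centered log2 values. *Slc13a4*, a sulfate transporter gene, had 90.0, 39.0, 72.6, and 29.95 TPM in the order used above. A similar order over 4 libraries is a description of these livers.

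The promoters were read from RefSeq sequences of the GRCr8 assembly, which is a later build than the rn6 coordinates of the expression values. Entries were found for 8 of the 9 members, all but *Gsr*, and *Txnrd1* had 2 of them. The 250 bases before each start site were searched on both strands for TGACNNNGC, the core of the antioxidant response element. A match was present in 10.1% of all 33469 promoters and in 2 of the 9 promoters of members, and the difference was not tested. Matches were found for *Gclm* and for 1 of the 2 *Txnrd1* promoters. *Akr1b8*, the other member called over its own control, had none. Both matches are shown with 10 flanking bases so that they can be compared. The matches are in capitals, and in both cases they lie on the strand opposite to the gene, where they read TGACTAAGC and TGACAAAGC.
Gclm: tgcggtttctGCTTAGTCAttgtcttcca
Txnrd1: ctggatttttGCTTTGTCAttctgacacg
The first is at chr2:213031953-213031981 on the plus strand and its match begins 172 bases before the start site. The second is at chr7:22755964-22755992 on the minus strand and its match begins 78 bases before the start site. Neither window holds TGANTCA, the AP-1 core that overlaps some of these elements. A match of letters is not a measured binding site, and windows farther from the start site were not searched.

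Glutathione that has been oxidized is returned to its reduced form by glutathione reductase, encoded by *Gsr* (chr16:62197618-62239987, minus strand). *Gsr* had 95.5 TPM in the sevoflurane control and 144 TPM at 6 hours, and 96.5 and 91.4 TPM in the matching desflurane libraries. The sevoflurane library was 1.51-fold above its own control and 1.495-fold above the other control, and the remaining 3 libraries lay within 1.05-fold of each other. *Gsr* was below *Gclm* in both controls, at 0.378 and 0.536 times its TPM, and above it after sevoflurane and desflurane, at 1.42 and 1.24 times.

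The thioredoxin arm reduces oxidized proteins and peroxiredoxins. *Txnrd1* (chr7:26946124-27023889, minus strand), the cytosolic thioredoxin reductase, had 71.1, 72.1, 65.1, and 53.3 TPM in the library order used for *Keap1*. It was 1.01-fold higher with sevoflurane and 1.22-fold lower with desflurane. *Srxn1* (chr3:147608850-147614410, plus strand), which encodes sulfiredoxin and restores overoxidized peroxiredoxins, had 11.1, 17.9, 8.74, and 9.87 TPM in the same order. It was 1.61-fold higher with sevoflurane, and 2.04-fold higher when the desflurane control was used, which passed the limit. In that comparison, *Srxn1* was 1 of 9 members called higher and none was called lower, beside 2.52% and 2.59% of all genes. With desflurane, *Srxn1* was 1.13-fold above its own control and 1.12-fold below the other control. The genes with the most similar profile were *B3galt6*, *Tmco6*, and *Lysmd2*, at distances of 0.10, 0.11, and 0.12.

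Quinones and reactive aldehydes are reduced by *Nqo1* and *Akr1b8*. *Nqo1* (chr19:38422210-38437103, plus strand), the NAD(P)H quinone dehydrogenase often used as an indicator of NRF2 activity, was low in these livers. It had 7.06 TPM in the sevoflurane control and 10.4 TPM at 6 hours, and 8.89 and 8.94 TPM in the matching desflurane libraries. It was 1.47-fold higher with sevoflurane and 1.01-fold higher with desflurane, and the controls differed 1.26-fold. Both 6 hour libraries were above both controls in TPM, an arrangement found for 34.4% of the 9136 genes. With desflurane this rested on 8.94 against 8.89 TPM, and the log2 ratio over its own control was -0.12 with median-of-ratios scaling, -0.05 with TPM rescaled to the annotated total, and -0.07 with FPKM.

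*Akr1b8* (chr4:61772064-61784637, plus strand), an aldo-keto reductase gene, had 0.348 TPM in the sevoflurane control and 2.04 TPM at 6 hours, and 2.92 and 0.220 TPM in the matching desflurane libraries. It was 5.87-fold higher with sevoflurane and 13.3-fold lower with desflurane, or 2.26-fold higher and 3.22-fold lower with a pseudocount of 1 TPM. The controls themselves differed 8.40-fold, and with the control of the other agent *Akr1b8* was 1.43-fold lower with sevoflurane and 1.58-fold lower with desflurane. The mean coverage was 0.625, 3.45, 5.47, and 0.370 in the order of the libraries, so these values rest on few reads. Among 9136 genes, the closest profiles over the 4 libraries were those of *Rn18s*, *Rn45s*, and *Wfdc21*, but at distances of 1.26, 1.60, and 1.66. The first of these, a ribosomal RNA gene, had 5139 TPM in the sevoflurane control and 13226 TPM at 6 hours, and 20510 and 3800 TPM in the matching desflurane libraries. The part of ribosomal RNA in the values of *Akr1b8* was not tested. *Akr1b8* has neighboring paralogs that may share reads, of which *Akr1b7* had 6.92, 6.44, 30.1, and 35.1 TPM.

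**Figure D3:**
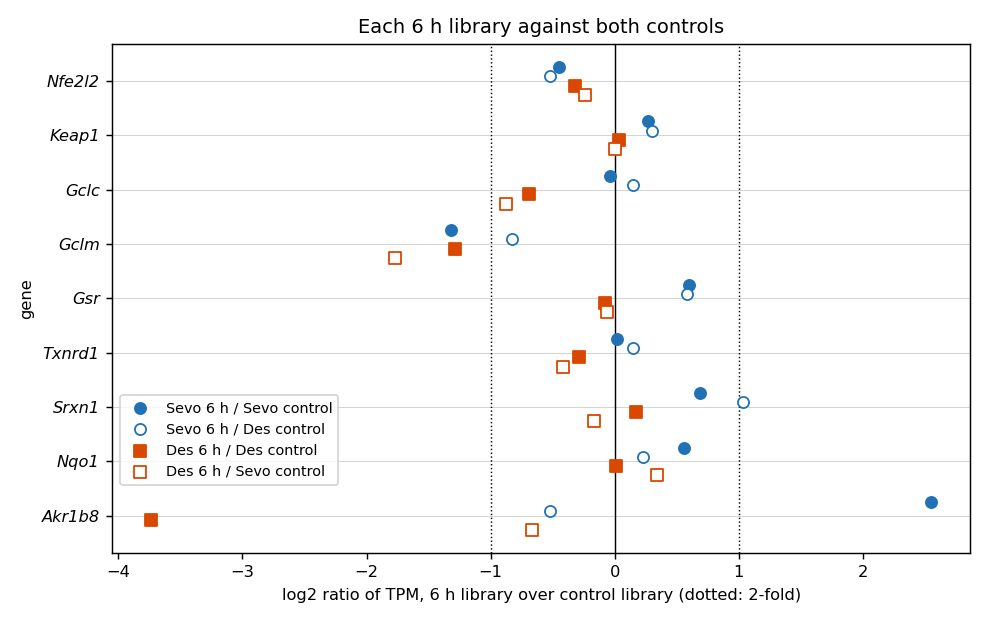
Log2 ratio of TPM for each 6 hour library over its own control (filled) and over the control of the other agent (open), with circles for sevoflurane, squares for desflurane, and dotted lines at 2-fold. The 4 points of *Gclm* lie between -1.77 and -0.83, those of *Nfe2l2* between -0.52 and -0.24, and those of *Akr1b8* on both sides of 0.

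The choice of control mattered for several members. Between the controls, *Akr1b8* was higher in the desflurane control and was 1 of 9 members called, beside 1.17% of genes called higher and 1.17% called lower in the desflurane control. When desflurane was compared with the sevoflurane control, *Gclm* was 1 of the 8 members that could be called and was called lower, none was called higher, and 2.84% of all genes were called higher and 1.58% lower. The same direction in all 4 pairs of a 6 hour library and a control was seen in TPM for *Gclm*, *Nfe2l2*, and *Nqo1*. *Gclm* and *Nfe2l2* were lower, and *Nqo1* was higher. Among the 9136 genes above 2 TPM in all 4 libraries, 13.0% were lower and 34.4% higher in all 4 pairs. The direction was kept by *Gclm* and *Nfe2l2* with FPKM and either rescaling of TPM, but not by *Nqo1*. In assembled rows, *Gclm* and *Nqo1* kept the direction and *Nfe2l2* did not, and *Keap1* was higher in all 4 pairs.

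Across the 9 members, the median log2 ratio was 0.27 with sevoflurane and -0.29 with desflurane, each over its own control. Among all genes above 2 TPM in the 4 libraries, the medians were 0.05 and 0.12. Leaving out *Akr1b8*, which was near the limit of 2 TPM, brought the medians of the other 8 members to 0.14 and -0.18. With sevoflurane, 6 members were higher and 3 lower, or 5 and 4 with median-of-ratios scaling or FPKM. In TPM, 42.9% of all genes were lower with sevoflurane. With desflurane, 3 members were higher and 6 lower, or 1 and 8 with FPKM or either rescaling of TPM. In TPM, 33.0% of all genes were lower with desflurane. When the controls were exchanged, the 9 members had a median log2 ratio of 0.15 with sevoflurane, beside 0.07 for all genes. For desflurane it was -0.24, beside 0.10 for all genes. With 1 library each, the contrast of agents in the members was not tested.

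When the 6 hour libraries were compared with each other, 8 of the 9 members were lower with desflurane than with sevoflurane, and with FPKM all 9 were lower. The exception in TPM was *Nfe2l2*, at 1.15-fold higher. The median log2 ratio of the members was -0.46, compared with 0.06 for all genes, of which 42.2% were lower with desflurane. FPKM moved the median of all genes to -0.15 and that of the members to -0.66. *Akr1b8* was the only member called, as 9.29-fold lower with desflurane, beside 1.17% of genes called lower and 2.76% called higher. *Srxn1* (1.81-fold), *Gclc* (1.79-fold), and *Gsr* (1.58-fold) came next and did not pass the limit, although *Srxn1* and *Gclc* did in FPKM. Relative to the median of all genes, the members were lower by 0.51 on the log2 scale. This value is the same in TPM and FPKM by construction, because the measures differ by a single factor per library. Between these libraries, the macrophage genes added up to 452 TPM after sevoflurane and 684 TPM after desflurane. The hepatocyte, endothelial, and T, NK, and B cell sums were also higher after desflurane. The sums of erythroid (83.4 and 49.1 TPM), cholangiocyte (16.9 and 14.5 TPM), and neutrophil genes (2.83 and 1.65 TPM) were lower after desflurane. Those of acinar (18.5 and 15.7 TPM) and stellate and fibroblast genes (329 and 326 TPM) were lower as well. The part of these cells in the difference was not tested.

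Other genes of the same pathway were examined from a list of 82 symbols, of which 80 were measured. With sevoflurane, 4 of the 75 that could be called were higher and 1 was lower, and the median log2 ratio of the measured genes was 0.03. With desflurane, 0 of 74 were called higher and 2 lower, and the median was 0.01. All of the called genes are described next, and the counts of 1 to 4 genes can be read beside the shares of all genes given above.

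Of the 13 genes of glutathione metabolism, 11 could be called with sevoflurane. Of these, 3 were called higher, beside 2.23% of all genes that could be called, and the difference was not tested. *Slc7a11* and *Slc3a2*, which together encode the cystine and glutamate exchanger, increased from 0.366 to 2.81 TPM and from 77.8 to 172 TPM, respectively. *Slc7a11* was at no more than 2.81 TPM in any library, so it could not be called with a limit of 5 TPM. *Chac1*, which encodes an enzyme that breaks down glutathione, increased from 2.36 to 6.89 TPM. All 3 are also known targets of ATF4. With desflurane, *Chac1* was called lower, from 3.26 to 1.26 TPM, but it was not called against the sevoflurane control, at 1.88-fold lower. It was 1 of 10 genes of this group that could be called with desflurane, beside 1.48% of all genes called lower. *Slc3a2* had 80.0 and 78.8 TPM, and *Slc7a11* had 0.235 and 0.0380 TPM. The most abundant genes of this group, *Mgst1* and *Gpx1*, had TPM values between 2410 and 2889 and between 647 and 929.

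*Osgin1* had 156 TPM in the sevoflurane control and 76.4 TPM at 6 hours, and 220 and 72.3 TPM in the matching desflurane libraries. It was 2.04-fold and 3.05-fold lower, and like *Gclm* it was lower in each 6 hour library than in either control. *Abcc3*, an efflux transporter gene, was called higher with sevoflurane, from 5.96 to 16.1 TPM, and was 1.82-fold higher with desflurane, from 11.1 to 20.2 TPM. With the control of the other agent, *Abcc3* was not called with sevoflurane and was called higher with desflurane. No other gene of the list was called with either agent over its own control.

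Apart from *Abcc3* and *Osgin1*, the groups outside glutathione metabolism contained no gene called with either agent over its own control. Among the regulators, *Sqstm1*, whose product can displace NRF2 from KEAP1, had between 373 and 517 TPM, and *Park7* between 77.0 and 82.5 TPM. The peroxiredoxin genes *Prdx1* and *Prdx6* had 446 to 532 TPM and 213 to 272 TPM. The ferritin genes *Ftl1* and *Fth1* had 3081 to 4187 TPM and 1036 to 1206 TPM. *Tkt*, an enzyme gene of NADPH supply, was 1.62-fold higher with sevoflurane and 1.03-fold lower with desflurane, and *Idh1* was 1.28-fold and 1.06-fold lower. Of the detoxifying enzymes, *Gstm1* was 1.44-fold higher with sevoflurane and 1.27-fold lower with desflurane, and *Ephx1* was 1.47-fold higher and 1.70-fold lower. *Akr1a1*, *Akr7a2*, and *Aifm2* stayed within 1.25-fold of their own control.

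**Figure D4:**
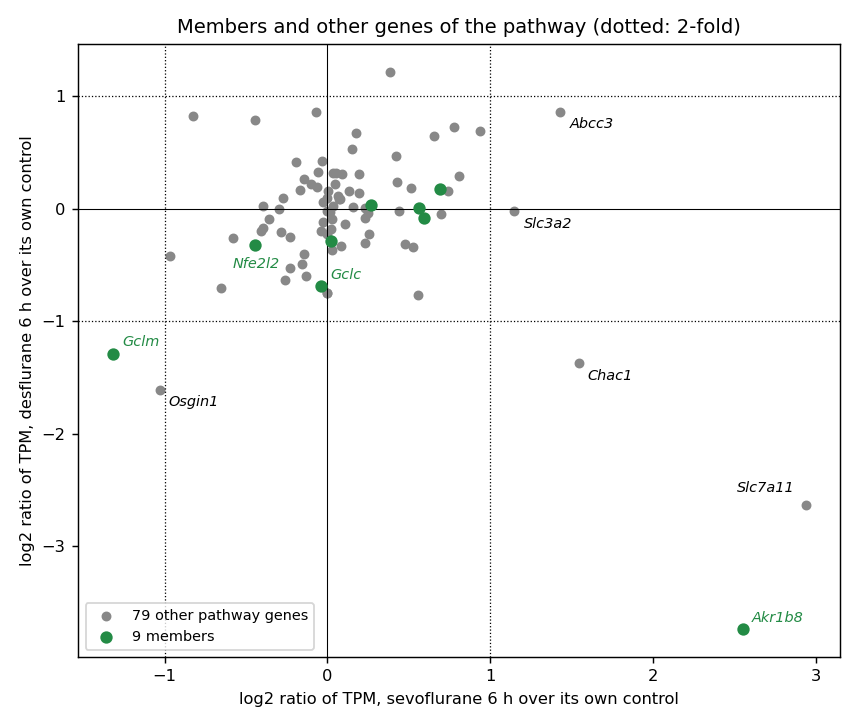
Log2 ratio of TPM over the own control for sevoflurane (horizontal) and desflurane (vertical), for the 9 members (green) and the 79 other genes of the pathway with a ratio for both agents (gray), with dotted lines at 2-fold. *Gclm* and *Osgin1* lie beyond 2-fold below with both agents, whereas *Akr1b8*, *Slc7a11*, and *Chac1* lie to the right and below.

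Antioxidant genes that are not typical NRF2 targets were listed for comparison, and 11 of 13 symbols were measured. With sevoflurane, none was called, 3 were higher, and 8 were lower, with a median log2 ratio of -0.17. With desflurane, 8 were higher and 3 lower, with a median of 0.04, and the metallothionein genes *Mt2A* and *Mt1* were called higher, from 455 to 1583 TPM and from 1676 to 3509 TPM. Their levels in the sevoflurane control were 1245 and 3640 TPM, so both were also called lower in the desflurane control than in the sevoflurane control. *Selenop*, the gene of the main selenium carrier of plasma, had between 4563 and 5598 TPM.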

How the data were processed

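RNA from 4 rat livers was sequenced, with 1 library per condition. The authors trimmed the reads with sickle, mapped them to rn6 with HISAT2, sorted them with SAMtools, and ran StringTie with the refGene annotation. In the deposited tables, TPM is a signal scaled per library: the assembled rows without gene names sum to 1000000, and the annotated rows come on top of that. The deposited FPKM values are normalized for library size, and the deposited coverage is the mean signal over the exons without normalization. Since read counts were not used here, counting intervals were not calculated.

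Annotated rows longer than 200 base pairs were kept, and TPM was summed per gene symbol. The calling rule (TPM above 2 in the higher library and more than 2-fold) follows the methods of the study. Ratios are without a pseudocount. Genes that could be called had TPM above 2 in at least 1 of the 2 libraries. All members were named, as were listed genes called with either agent, the 2 most abundant of each list, and for members varying more than 2-fold the 3 genes of most similar profile. *Akr1b7*, *Ctrb1*, *Pnlip*, and *Prss1* were named after their values were seen. The members and lists were chosen with earlier results of these data known. Alternatives covered the limits, a pseudocount, scaling, FPKM, row handling, the length filter, and the control. The scripts used pandas 2.3.3 and numpy 2.4.6 under Python 3.11.15. Simulated libraries with large known changes and little noise were used to try the calling rule, which does not cover genes near the limits.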

Additional observations from a re-analysis of the deposited data

Results flagged for a closer look

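*Akr1b8* and *Chac1* were called in opposite directions by the agents, each over its own control, and the difference was not tested because each condition has 1 library. The log2 ratio of *Akr1b8* was 2.55 with sevoflurane and -3.73 with desflurane. The log2 ratio of *Chac1* was 1.54 with sevoflurane and -1.37 with desflurane. The call of *Chac1* with desflurane was lost with the sevoflurane control (-0.91), with a pseudocount of 1 TPM (-0.92), and with a limit of 5 TPM or of 3-fold. It was also lost with FPKM, where the log2 ratio was -1.45. There the limit of 2 was applied to FPKM values, which are lower than TPM. With sevoflurane the call of *Chac1* was lost with a limit of 3-fold.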

How the results depend on the processing

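No paired analysis was possible because each condition has 1 library. With a limit of 5 TPM, *Akr1b8* could not be called, which left 0 members higher with sevoflurane, 1 lower with desflurane, 0 called between the controls, and 0 between the 6 hour libraries. The pathway list then had 3 genes higher with sevoflurane and 1 lower with desflurane. Without a TPM limit, it had 5 genes higher with sevoflurane, and 2 higher and 3 lower with desflurane. With a limit of 1.5-fold, 3 members were higher with sevoflurane, 3 were lower with desflurane, and 4 differed between the 6 hour libraries. The pathway list then had 10 genes higher and 4 lower with sevoflurane and 7 higher and 8 lower with desflurane. With a limit of 3-fold, 0 members were lower with sevoflurane and 1 with desflurane, and the list had 1 higher and 0 lower with sevoflurane and 1 lower with desflurane. With FPKM, the members had 0 higher with sevoflurane, 1 lower with desflurane, 0 between the controls, and 2 between the 6 hour libraries. The list with FPKM had 3 higher and 2 lower with sevoflurane and 1 lower with desflurane. There the limit of 2 was applied to FPKM, and *Akr1b8*, at no more than 1.01 in FPKM, could not be called. With the control of the other agent, 0 members were lower with sevoflurane and 1 with desflurane. The list then had 5 higher and 3 lower with sevoflurane and 2 higher and 1 lower with desflurane. With the mean of the controls, 0 members were higher with sevoflurane and 1 lower with desflurane. The list then had 5 higher and 2 lower with sevoflurane and 1 higher with desflurane. Median-of-ratios scaling gave 2 list genes lower with sevoflurane, rescaling to the annotated total gave 1 higher with desflurane, and a pseudocount of 1 TPM gave 1 lower with desflurane. The cause of these changes was not tested, apart from those that follow from the limit itself. The share of all genes called was not calculated for the other limits, the rescaled values, or FPKM. The counts under these settings therefore cannot be set beside such a share. *Akr1b8* with sevoflurane changed direction with the control of the other agent, to a log2 ratio of -0.52. Both member medians moved by less than the 0.15 between the controls under every alternative tried. Of 161 single-gene values under the alternatives, 14 had the opposite sign. Of these, 1 was the called value of *Akr1b8* above, and 13 were values within 2-fold that had not been called. Leaving out *Akr1b8* with the other control, 135 values moved by less than 0.15 and 25 by more. The 135 include the values under the choice of row and under no length filter, 18 each. Members have a single annotated row, so these alternatives could not move them. Depth limits *Akr1b8* most.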

Other observations

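The 4 other genes above 100 TPM in both controls that were called lower with both agents, beside *Gclm* and *Osgin1*, were *Hamp*, *Mbl2*, *Nrep*, and *Tsc22d1*, named after their values were seen. *Hamp*, the gene of the iron hormone hepcidin, decreased 3.25-fold with sevoflurane and 29.4-fold with desflurane. *Mbl2*, which encodes a mannose-binding lectin of the complement system, decreased 2.34-fold and 2.95-fold. *Nrep* decreased 2.94-fold and 2.45-fold, and *Tsc22d1* decreased 5.74-fold and 3.40-fold.

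The rows that StringTie assembled without gene names were examined at the members after the data were seen. At *Gclm*, the assembled row on the same strand had 282 TPM in the sevoflurane control, 101 TPM after sevoflurane, 180 TPM in the desflurane control, and 85.0 TPM after desflurane, which gave log2 ratios of -1.48 and -1.08. At *Nfe2l2*, the log2 ratio with sevoflurane was -0.03 in assembled rows and -0.45 in annotated rows. At *Akr1b8*, an assembled row covered 100% of the gene in the desflurane control, 35.0% after sevoflurane, and 10.9% in the sevoflurane control, and no row was assembled there after desflurane.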
